A study of Mus musculus with 9 samples.

Results

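The condensin genes are the 8 mouse genes that encode the subunits of condensin I and condensin II, and all of them were found among the 37273 genes of the GENCODE M1 annotation on the mm9 build. They were listed by name, as *Smc2*, *Smc4*, *Ncapd2*, *Ncapd3*, *Ncapg*, *Ncapg2*, *Ncaph* and *Ncaph2*, and each was given every BAP1 peak whose middle lay within 1 kb of any of its annotated transcription start sites (TSSs). BAP1 binding was mapped by ChIP-Seq in Ba/F3, a mouse line that grows in IL-3 and stands for a B cell precursor. One immunoprecipitation used wild type Ba/F3 cells with an anti-BAP1 antibody, and the other used Ba/F3 cells that stably expressed triple-FLAG-tagged murine BAP1, kept under puromycin selection, with an anti-FLAG M2 antibody. The deposited result is 1 list of 13164 peaks for these 2 samples together, without replicates, heights or p-values, so a peak is either listed or not. The peak names read CSTandFLAG, a label for both samples together. Whether each peak was called in both samples or in only 1 is not stated. The sequencing depth is not given in the peak list, and intervals given below cover counting error only. The remaining 7 of the 9 samples, which are input DNA and H2AK119ub libraries, were not analysed here.

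BAP1 is a deubiquitinase that removes ubiquitin from a lysine of the histone H2A tail, a mark laid down by Polycomb repressive complexes, and it acts within complexes recruited to promoters. Condensins are ring-shaped ATPases that fold chromatin into loops and compact chromosomes for mitosis, and dividing cells depend on them. In both complexes a pair of SMC ATPases, SMC2 and SMC4, is closed by a kleisin subunit, NCAPH in condensin I and NCAPH2 in condensin II, which in turn binds a pair of HEAT-repeat subunits, NCAPD2 and NCAPG in condensin I and NCAPD3 and NCAPG2 in condensin II. Condensin II resides in the nucleus through interphase, whereas condensin I reaches the chromosomes mainly after the nuclear envelope breaks down.

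The stretches below are the parts of the nearest peak at each non-SMC subunit gene that lie outside every annotated exon. They are shown as 3 pairs of matching subunits, condensin I first, to let the promoter sequence under matching peaks of the complexes be read side by side. The middles of the kleisin peaks and some of the motif matches lie in the exonic rest and are not printed. Each reads 5′ to 3′ along the strand of its condensin gene, and capitals mark exact matches to the motifs described further on. A match on the antisense strand appears as its reverse complement, such as ATTGG for CCAAT. In *Ncapg2* the first capitals join a GGGCGG and an overlapping E2F match. Both kleisin stretches, that of *Ncapd3* and that of *Ncapd2*, are shorter than the peak because the rest of the peak lies in an exon, of the gene itself or of its neighbor.
Ncapd2, chr6:125141656-125141818, minus strand: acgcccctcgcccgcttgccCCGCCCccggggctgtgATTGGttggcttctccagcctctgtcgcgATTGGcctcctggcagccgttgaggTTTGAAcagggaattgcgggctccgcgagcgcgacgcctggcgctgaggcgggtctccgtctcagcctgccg
Ncapd3, chr9:26837680-26837759, plus strand: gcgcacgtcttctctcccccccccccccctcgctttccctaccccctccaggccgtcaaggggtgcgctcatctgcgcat
Ncapg, chr5:46060918-46061117, plus strand: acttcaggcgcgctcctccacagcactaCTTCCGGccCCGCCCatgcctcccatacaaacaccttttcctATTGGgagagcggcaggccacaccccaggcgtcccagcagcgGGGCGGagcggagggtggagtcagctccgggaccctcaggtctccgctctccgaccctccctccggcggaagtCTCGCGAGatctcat
Ncapg2, chr12:117643657-117643856, plus strand: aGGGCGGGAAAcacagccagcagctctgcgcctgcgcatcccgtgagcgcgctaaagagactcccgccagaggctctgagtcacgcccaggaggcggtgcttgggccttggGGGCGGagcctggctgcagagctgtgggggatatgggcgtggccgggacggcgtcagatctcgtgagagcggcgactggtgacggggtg
Ncaph, chr2:126959691-126959780, minus strand: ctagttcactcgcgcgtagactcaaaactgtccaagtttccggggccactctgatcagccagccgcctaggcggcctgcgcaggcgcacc
Ncaph2, chr15:89186091-89186149, plus strand: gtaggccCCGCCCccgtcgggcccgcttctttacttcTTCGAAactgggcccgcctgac

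All 8 condensin genes had a gene-proximal BAP1 peak (95% Wilson interval 67.6 to 100%), and 11 peaks were assigned to them in total. For comparison, 26.2% of all annotated genes and 39.6% of the 22367 protein-coding genes had one by the same rule. The share was the same in both complexes, with 3 of 3 specific genes bound in condensin I, 3 of 3 in condensin II and 2 of 2 shared SMC genes. The 3 condensin I genes carried 4 peaks, the 3 condensin II genes carried 5, and the SMC genes carried 2. No test was made between the complexes, since 3 genes on 1 list are not replicates, and a difference of 1 peak cannot be weighed against an error.

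**Figure D1:**
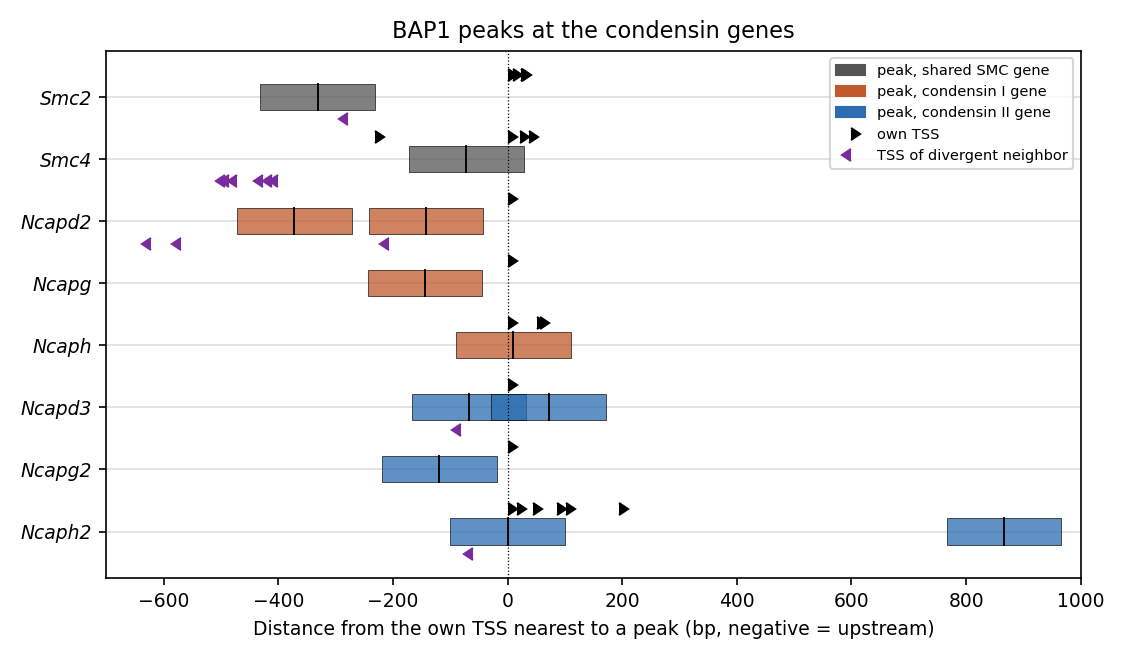
BAP1 peaks at the condensin genes. Each row is a gene, boxes are 200 bp peaks with their middle as a line, and the x axis is the distance in bp from the own TSS nearest to a peak, along the direction of transcription. The flat side of each arrowhead marks an own TSS (black) or a TSS of the divergent neighbor (purple). The nearest peak middles lie between -331 bp (*Smc2*) and 10 bp (*Ncaph*).

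Among the SMC genes, *Smc2* (chromosome 4, plus strand, 52452115 to 52501237) encodes an ATPase present in every condensin. It had 1 peak, at 52451685 to 52451884, whose middle was 331 bp upstream of its first TSS and covered none of its 5 TSSs. Taking the nearest peak of each member, that of *Smc2* was the farthest from a start, and only 5.45% of the bound protein-coding genes had their nearest peak farther away. The peak middle fell in an exon of *2700081L22Rik*, a noncoding transcript on the opposite strand, 53 bp downstream of its TSS. *Smc4* (chromosome 3, plus strand, 68808660 to 68838545) encodes the ATPase that pairs with SMC2. It had 1 peak, at 68808721 to 68808920, inside the 5′ UTR of its longest transcript. This peak sat between alternative starts of the gene, 160 bp downstream of the most upstream TSS and 72 bp upstream of the next one, and it covered 2 TSSs.

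The HEAT-repeat subunits of the D type help to load condensin onto chromatin, and both genes had 2 peaks. At *Ncapd2* of condensin I (chromosome 6, minus strand, 125118027 to 125141613), the peaks at 125141656 to 125141855 and 125141886 to 125142085 had their middles 142 and 372 bp upstream of the single TSS, and neither covered it. A gap of 30 bp separated them. At *Ncapd3* of condensin II (chromosome 9, plus strand, 26837760 to 26902896), the peaks at 26837594 to 26837793 and 26837733 to 26837932 overlapped by 61 bp, and both covered the single TSS. Their middles lay 67 bp upstream and 72 bp downstream of it, the latter in the 5′ UTR. The peaks thus lay wholly upstream of the TSS at the condensin I gene and on both sides of it at the condensin II gene.

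The G-type subunits, also HEAT-repeat proteins, had 1 peak each, and in both genes it lay just upstream of the start without reaching it. At *Ncapg* of condensin I (chromosome 5, plus strand, 46061161 to 46091783) the peak at 46060918 to 46061117 had its middle 144 bp upstream of the TSS of the only protein-coding transcript. At *Ncapg2* of condensin II (chromosome 12, plus strand, 117643875 to 117702004) the peak at 117643657 to 117643856 had its middle at -119 bp from the only TSS, where negative values are upstream. The distances of this pair differed by less than the width of a peak. The *Ncapg2* peak also lay in intron 1 of *D430020J02Rik*, annotated on the opposite strand, whose own nearest TSS was 20582 bp away.

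The kleisins close the ring, and their genes had peaks centered on the start. At *Ncaph* of condensin I (chromosome 2, minus strand, 126929545 to 126959690) the single peak at 126959581 to 126959780 had its middle 10 bp downstream of the first TSS, in the 5′ UTR, and covered 3 TSSs. At *Ncaph2* of condensin II (chromosome 15, plus strand, 89186150 to 89203257) the middle of the peak at 89186051 to 89186250 coincided with the first TSS, at a distance of 0 bp, and the peak covered 4 TSSs. *Ncaph2* had a further peak in intron 1, at 89186917 to 89187116, the single member peak in an intron of its own gene. The middle of that peak lay 671 bp downstream of the nearest TSS, which belongs to a transcript with a retained intron, and 866 bp from the first TSS. It is the assigned peak nearest to the limit of 1 kb. Among peaks outside the limit, the one closest to a member TSS was also near *Ncaph2*, 3359 bp from the TSS of a short internal transcript. It was not assigned to *Ncaph2*, and its nearest TSS was that of *Sco2*. A second peak was present at 3 of the 8 members, 1 of condensin I and 2 of condensin II. Of bound protein-coding genes, 25.5% had 2 or more, and with 8 members no difference is read from these shares. With peaks merged within 500 bp, only *Ncaph2* kept 2.

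The nearest peak of each member lay between -331 and 10 bp of a TSS, with a median of -95.5 bp. Over the 8850 protein-coding genes with a gene-proximal peak the median was -32.5 bp, with quartiles of -73.0 and 0.00 bp. The nearest peak was within 200 bp at 7 of 8 members and at 89.6% of bound coding genes. A TSS lay under a peak at 4 of the 8 members, *Smc4*, *Ncapd3*, *Ncaph* and *Ncaph2*, and at 77.7% of the bound coding genes. By complex, the median was -142 bp for condensin I (range -144 to 10 bp) and -67.0 bp for condensin II (range -119 to 0 bp), so the ranges overlapped. Of the condensin I peaks 3 of 4 were upstream of the nearest TSS, and of the condensin II peaks 2 of 5. These counts include second peaks. At 75.0% of the bound coding genes the nearest peak was upstream. With 3 genes each, these positions are a description.

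**Figure D2:**
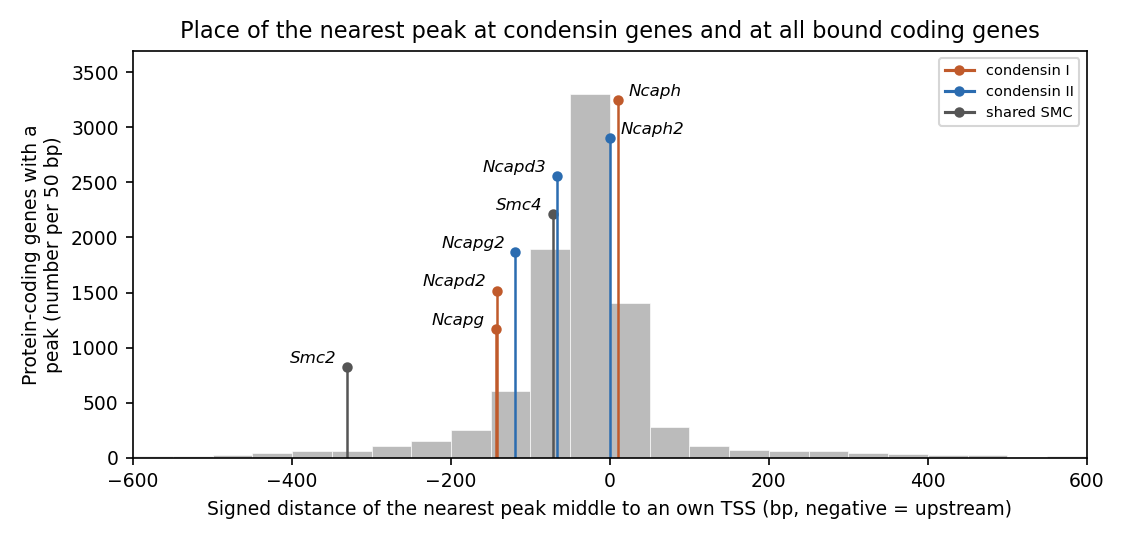
Place of the nearest peak. Gray bars count protein-coding genes with a gene-proximal peak by the signed distance of the nearest peak middle to an own TSS, in bins of 50 bp (negative is upstream), and the pins mark the condensin genes, colored by complex, with heights chosen only to separate the names. *Smc2*, at -331 bp, stands outside the main body of the distribution, and the others lie between -144 and 10 bp.

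The annotation gives the members 39 TSSs, of which 22 lay within 1 kb of a peak. The other 17 are internal starts in 4 genes, and 0 of them belong to a transcript annotated as protein-coding. Beyond the 11 assigned peaks, no member had a peak within its gene body. Within 50 kb of a member TSS, 4 genes had further peaks, which were 1 near *Smc4*, 5 near *Ncapd2*, 2 near *Ncaph* and 2 near *Ncaph2*. Most of these were at the promoters of other genes. The peaks near *Ncapd2* lay within 126 bp of a TSS of *Iffo1*, *Gapdh* or *Vamp1*, those near *Ncaph* within 58 bp of a TSS of *Blvra* or *Itpripl1*, and the one near *Smc4* was 96 bp from a TSS of *Trim59*. Near *Ncaph2*, one peak was 39 bp from a TSS of *Sbf1*, and the other was 1663 bp from the nearest TSS, that of *Sco2*. *Smc2*, *Ncapd3*, *Ncapg* and *Ncapg2* had no other peak within 50 kb, and for *Smc2* and *Ncapd3* the next peak was 572608 and 569692 bp away. The share of protein-coding genes with a further peak within 50 kb was not computed, so these counts only describe the members.

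Head-to-head arrangement with another gene was frequent among the members. A TSS on the opposite strand within 1 kb upstream was annotated for 5 of 8, compared with 13.9% of protein-coding genes and 27.9% of those with a peak. The distance between the paired TSSs was 60 bp for *Ncaph2* and *Lmf2*, 81 bp for *Ncapd3* and *Vps26b*, 168 bp for *Smc4* and *Ift80*, 206 bp for *Ncapd2* and *Mrpl51*, and 278 bp for *Smc2* and *2700081L22Rik*. *Ift80* encodes a protein of intraflagellar transport, *Mrpl51* a protein of the mitochondrial ribosome and *Vps26b* a subunit of retromer. Both shared SMC genes, 2 of 3 condensin II genes and 1 of 3 condensin I genes had such a neighbor.

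Of the 11 member peaks, 8 were therefore gene-proximal for another gene as well, and only those of *Ncapg*, *Ncapg2* and *Ncaph* lay within 1 kb of no other gene's TSS. In 4 of these 8 the middle was nearer to the TSS of the neighbor. How many of all gene-proximal peaks lie near a second gene was not computed, so no excess is read from these counts. At *Ncapd2*, the first peak was at -64 bp from the nearest *Mrpl51* TSS and -142 bp from that of *Ncapd2*, and the second was 166 bp downstream of that *Mrpl51* TSS. At *Ncapd3*, the first peak was at -14 bp from the *Vps26b* TSS and -67 bp from that of *Ncapd3*, whereas the second was at -153 bp from the former and 72 bp from the latter. The *Smc2* peak lay nearer to the noncoding neighbor, as given above. At *Smc4* the nearest *Ift80* TSS was farther than the own one, with the peak at -328 bp from it. At *Ncaph2* the first peak was at -60 bp from the *Lmf2* TSS, and the second at -926 bp. The peak list alone cannot assign a peak between such starts to one gene of the pair.

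The promoters of all members were rich in CpG dinucleotides. Measured from 500 bp before to 500 bp after the TSS nearest to the peak, the observed over expected CpG ratio was highest at *Ncapg*, 0.912, and lowest at *Ncaph2*, 0.729. The median over the members was 0.846. Over all protein-coding genes, with the TSS of the longest transcript, the median was 0.546 (quartiles 0.224 and 0.770), and over those with a peak 0.761 (quartiles 0.642 and 0.862). The ratio ranged from 0.822 to 0.912 in condensin I, from 0.729 to 0.858 in condensin II, and was 0.879 in *Smc2* and 0.865 in *Smc4*, so the complexes overlapped. Members and background thus used different TSSs. At the TSS of the longest transcript the ratio of *Ncapg* was 0.158, since that transcript starts inside the gene, and the other 7 members had between 0.725 and 0.907.

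Since BAP1 peaks were common at such promoters, the members were also set against genes of the same kind. Among protein-coding genes with a ratio of at least 0.6, which all 8 members had at the TSS nearest to the peak and 7 at that of the longest transcript, 69.9% carried a gene-proximal peak, against 14.1% of those below. Among coding genes with a divergent neighbor the share was 79.0%. It was 86.7% for genes with both a high ratio and a divergent neighbor, the class of *Smc2*, *Smc4*, *Ncapd2*, *Ncapd3* and *Ncaph2*, and 64.8% for genes with a high ratio alone, the class of *Ncapg2* and *Ncaph*. *Ncapg* joins that class by the TSS nearest to its peak. By the TSS of the longest transcript, which the background uses, its ratio of 0.158 puts it among the genes below 0.6, of which 14.1% were bound. Apart from *Ncapg* by the latter TSS, the members thus belong to classes in which most genes were bound. Expression in Ba/F3 cells was not measured in the data used here, and its part in the result was not tested.

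**Figure D3:**
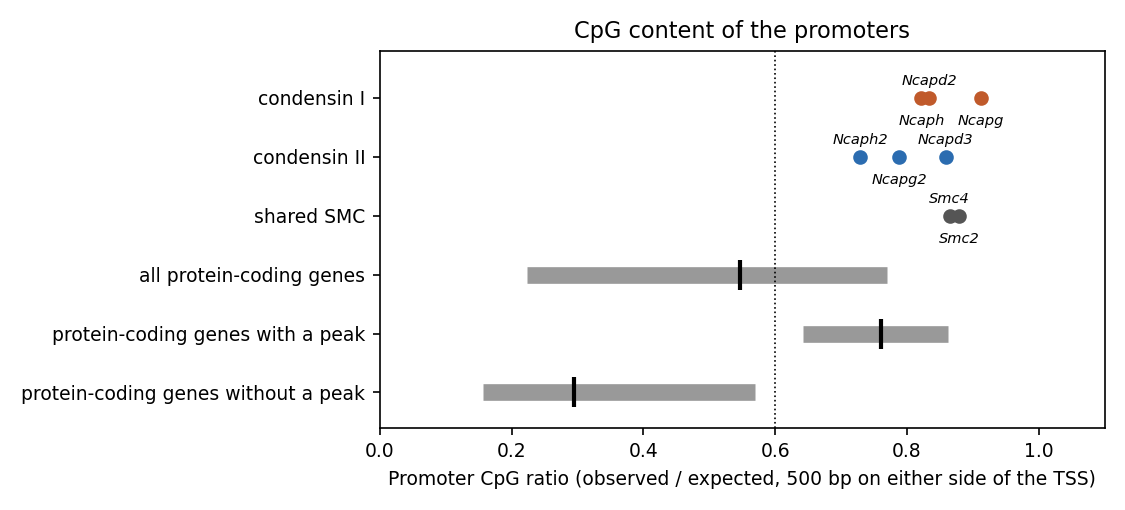
CpG content of the promoters. Points are the condensin genes, placed by the observed over expected CpG ratio of the 500 bp before and after the TSS, gray bars span the quartiles of the gene sets named on the left with the median as a black line, and the dotted line is the ratio of 0.6. The members use the TSS nearest to the peak and the gene sets that of the longest transcript. All 8 members lie to the right of the dotted line.

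Genes that work beside condensin were counted by the same rule. Of 9 genes listed as partners of condensin, 9 had a gene-proximal peak. These include *Top2a*, the topoisomerase that untangles sister DNA, with a peak at -83 bp, *Kif4*, a chromokinesin, at 283 bp, *Mcph1*, an inhibitor of condensin II, at -46 bp, and the mitotic kinase genes *Cdk1*, *Plk1* and *Aurkb*, at -85, -35 and -16 bp. *Top2b* had 2 peaks, and *Mki67* and *Akap8*, which encode chromosome-bound proteins of mitosis, had 1 each, at -287 and -172 bp. *Cdk1* was bound at a CpG ratio of 0.526, below 0.6. Cohesin, the SMC complex that holds sister chromatids together, had a peak at 13 of 13 genes of its subunits and regulators, and the SMC5/6 complex of DNA repair at 6 of 6 genes found in the annotation (*Eid3* was not found). In contrast, 0 of 4 genes of meiosis-specific cohesin subunits, *Smc1b*, *Rec8*, *Rad21l* and *Stag3*, had one (95% Wilson interval 0.00 to 49.0%). Their nearest peaks were between 10790 and 94896 bp away. The CpG ratio was 0.704 at *Smc1b* and 0.754 at *Stag3*, above 0.6, and 0.491 at *Rec8* and 0.243 at *Rad21l*. Apart from these 4 meiosis-specific genes, every listed gene found in the annotation was thus bound, as were the condensin genes. The bound cohesin, SMC5/6 and partner genes, except *Cdk1*, had CpG ratios of at least 0.6. In that class 69.9% of protein-coding genes were bound, against 39.6% of all protein-coding genes. The median position of the nearest peak was -33.0 bp for cohesin, 53.5 bp for SMC5/6 and -83.0 bp for the partners, beside -95.5 bp for condensin.

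**Figure D4:**
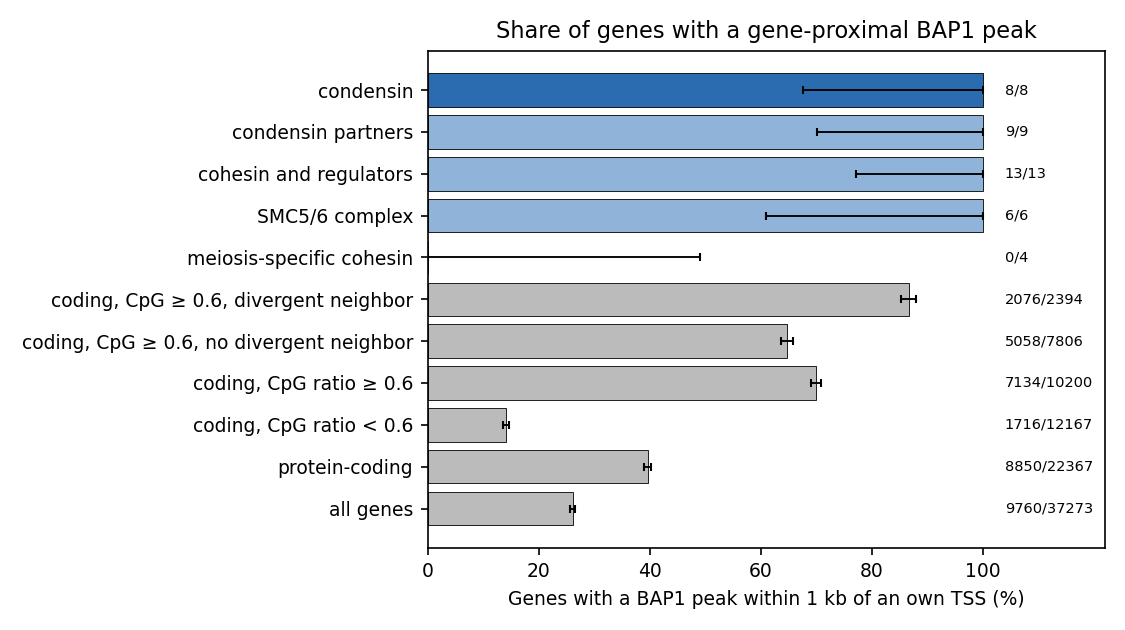
Share of genes with a gene-proximal BAP1 peak. Bars give the percentage of genes with a peak middle within 1 kb of an own TSS, whiskers are 95% Wilson intervals, and the numbers on the right are genes with a peak over all genes of the set. All 8 condensin genes had a peak, as did the partners, cohesin and SMC5/6, while the meiosis-specific cohesin genes had none and protein-coding genes reached 39.6%.

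The 200 bp of each member peak was searched on both strands for exact matches to 9 groups of short motifs. The CHR element, which recruits the DREAM and MuvB complexes to genes of G2 and mitosis, was taken as TTTGAA or TTCGAA. It was present in 5 of 11 member peaks (45.5%), against 6.62% of all 13164 peaks and 5.52% of gene-proximal ones. These peaks belong to 4 of 8 members, *Smc4*, *Ncapd2*, *Ncapd3* and *Ncaph2*, while 6.73% of bound protein-coding genes had a peak with a match. At *Ncapd2* the match was on the sense strand, at -114 to -109 bp from the TSS, and at *Ncaph2* it was at -22 to -17 bp, as TTCGAA, both printed above. The second peak of *Ncaph2*, in intron 1, held another, TTTGAA, at 835 to 840 bp from the first TSS. At *Smc4* it was on the antisense strand, at -55 to -50 bp from the TSS nearest to the peak, and at *Ncapd3* it was in the second peak, at 167 to 172 bp. By complex, matches were found in the peaks of 1 condensin I gene and 2 condensin II genes. The GC content of the member peaks ranged from 52.5 to 73.0% (median 66.5%, all peaks 65.0%), and the peaks with a CHR match had 59.5% (*Smc4*), 69.0% (*Ncapd2*), 52.5% (*Ncapd3*), 68.0% and 53.0% (*Ncaph2*). The second peaks of *Ncapd3* and *Ncaph2* are thus among the less GC-rich, and the part of base composition in the count was not tested.

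Other motifs were present at few members or at shares near the background. GGGCGG, bound by SP factors, was present in 7 of 11 member peaks (63.6%), against 59.5% of all peaks and 68.6% of gene-proximal ones. CCAAT, bound by NF-Y, was found in 2 (18.2%, all peaks 28.5%, gene-proximal ones 30.0%). It lay in 2 copies on the antisense strand at *Ncapd2*, at -168 to -164 and -139 to -135 bp, and in 1 copy at *Ncapg*, at -173 to -169 bp. Both are condensin I genes, but with 100 bp added on either side of each peak the matches extended to *Smc2* and to *Ncaph2* of condensin II. CCGGAAG, bound by ETS factors, was present at *Ncapg* and *Ncaph2* (18.2%, all peaks 16.8%, gene-proximal ones 20.2%). Single peaks held an E2F match (TTTGGCGC, TTTCGCGC, TTTCCCGC or TTTGCCGC), at *Ncapg2*, where TTTCCCGC overlaps a GGGCGG, and CTCGCGAG, a sequence of BANP and related factors, at -58 to -51 bp from the *Ncapg* TSS. Of all peaks, 2.74 and 1.50% held these. *Smc4* held GCATGCGC of NRF1, as a pair of overlapping matches on opposite strands, and AAGATGGC of YY1, a factor that associates with BAP1, at -85 to -78 bp from the TSS nearest to the peak (4.82 and 4.13% of all peaks). ACTACAA of ZNF143 and THAP11 was found in 0 of 11 (2.54% of all peaks). At least 1 motif matched in 9 of 11 member peaks, near the share of 80.3% over all peaks. No motif matched in the other 2, that of *Ncaph* and the second of *Ncapd2*. A match is a description of the letters and does not show a bound factor.

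**Figure D5:**
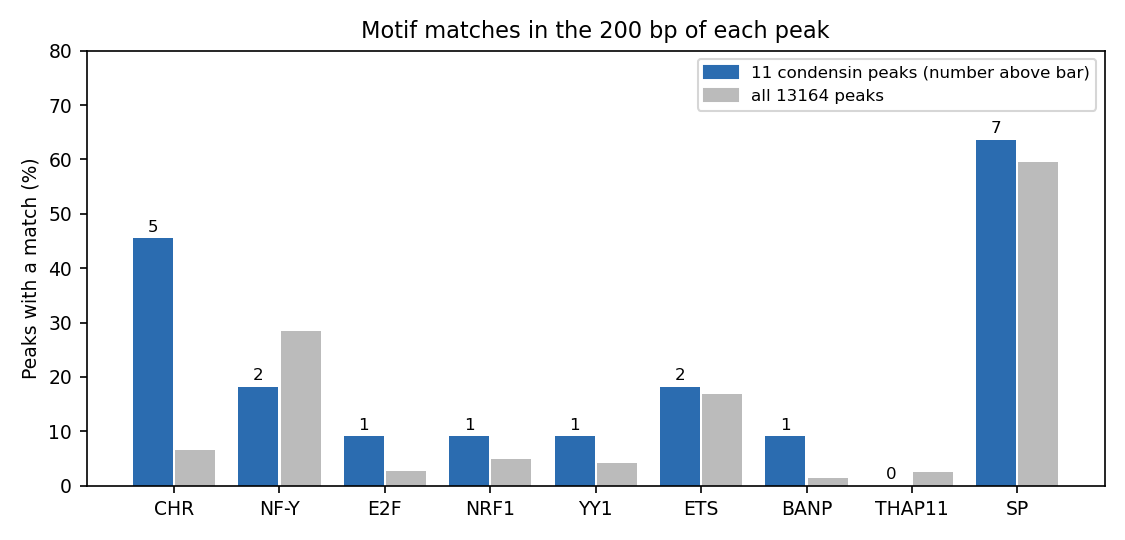
Motif matches in the peaks. For each motif group, the blue bar is the percentage of the 11 condensin peaks with a match in their 200 bp, with the number of peaks above it, and the gray bar is the percentage of all 13164 peaks. The CHR group shows 45.5% against 6.62%, and SP shows 63.6% against 59.5%. Of gene-proximal peaks alone, which are not drawn, 5.52 and 68.6% held these.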

How the data were processed

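ChIP-Seq reads were mapped by the authors to the UCSC mm9 genome with Bowtie 1.0.0, and peaks were called with MACS (1.4.2 per the submitters' processing notes) against input DNA of the same cells. The deposited file gives the chromosome, start, end and name of each peak, all 200 bp wide. The peak threshold and the rule that combined the 2 samples are not given in the sources used here, and a stricter threshold would list fewer peaks. Columns of values from samples outside the series numbered 0.

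Peaks were placed on GENCODE M1, which uses the same build (NCBIM37), leaving out 37 mitochondrial genes. The middle of a peak is its start plus 100 bp. Distances are to the nearest own TSS, negative upstream. A divergent neighbor has a TSS on the opposite strand within 1 kb upstream. CpG ratios cover the 500 bp before and after a TSS, and 0.6 or more was called high. Motif groups and related genes are described with the results. Members and lists were chosen with earlier results of these data known, so the values are descriptive, with no test. The text names all members, genes that share their peaks, the genes at other peaks within 50 kb, and members of the related lists. The last 2 kinds go beyond the rule set for naming genes and were chosen after their values were seen. Scripts were tested on simulated data, in which 951 of 951 gene and peak pairs equaled those of bedtools 2.31.1 and 1300 of 1300 planted motifs were found. Python 3.11.15 with numpy 2.4.6, scipy 1.17.1 and pysam 0.24.0 was used.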

Additional observations from a re-analysis of the deposited data

How the results depend on the processing

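The counts of members, peaks, divergent neighbors and peaks with any motif kept within 1.5 times their value, and the median position and CpG ratio within 1 SD of the members, under every alternative run, whereas 4 counts of single motifs did not. A gene-proximal peak was found at 8 of 8 members when the nearer peak edge replaced the middle, with windows of 500 bp, 2 kb and 5 kb, with TSSs of protein-coding transcripts and with peaks merged within 500 bp, and at 7 with one TSS per gene. The exception is *Ncapg*, whose longest annotated transcript has a retained intron and starts inside the gene, at 46067252. The number of peaks was 9 after merging and 12 at 5 kb, and protein-coding genes with a peak then made up 39.5 and 42.5%. Their share was 37.0% with 1 TSS per gene, and between 38.6 and 40.4% under the remaining alternatives. Merging left 3 intervals at condensin I genes and 4 at condensin II genes, and at 500 bp both had 4 peaks. With 100 bp added on either side of each peak, CHR matches were found in 8 of 11 member peaks, belonging to 7 of 8 members, against 15.3% of all peaks widened alike, and *Ncaph* remained without one. E2F matches then rose from 1 to 3 peaks (5.02% of all). CCAAT and ETS matches rose from 2 to 4 of 11 member peaks each, against 41.7 and 21.8% of all peaks widened alike. The CpG ratio at the TSS of the longest transcript, an alternative chosen after seeing the data, had a median of 0.828. Signal at the peaks was not used here, and sites below the caller's threshold are not in the list. No paired analysis was possible because the result comes from 1 peak list with no replicates.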

Other observations

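The peak names carry a running number, and the sources used here do not say what orders it. The share of peaks within 1 kb of a TSS was 99.0, 99.0, 98.5, 75.0 and 11.1% in 5 successive blocks of about 2633 peaks. The condensin peaks fell into these blocks as 3, 3, 3, 2 and 0. The lowest numbers were 20, the first peak of *Ncaph2*, and 827, that of *Ncaph*, so both kleisin genes came before the other members. Where a member had 2 peaks, the one farther from the TSS had the higher number, 8130 against 7348 at *Ncapd2*, 5194 against 1179 at *Ncapd3* and 9590 against 20 at *Ncaph2*.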
